A study of Mus musculus with 6 samples.

Results

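Homeobox and developmental transcription factor genes encode the DNA-binding proteins that lay out the body axis, limbs, nervous system and organs of the embryo. They were followed here in HCFC1 peaks of Hepa1-6 cells, a mouse hepatoma line that the labels describe as wild type and as hepatocytes. A peak belonged to these genes when the gene assigned to it in the deposited lists carried the name of 1 of 22 families, namely Hoxa, Hoxb, Hoxc, Hoxd, Alx, Dlx, Hmx, Irx, Lbx, Lhx, Msx, Nkx, Otx, Pax, Pitx, Dmrt, Gata, Hand, Sall, Sox, Tbx and the sine oculis family of Six5 and its relatives. This rule found 555 of the 70638 peaks of the 3 lists. The list from cells given control siRNA (scrambled, non-targeting) held 273 of them at 97 genes, the list after ERRα siRNA 173 at 98 genes and the list after HCFC1 siRNA 109 at 66 genes. Of 184 RefSeq genes whose symbols match the rule, 127 had a peak in at least 1 list. The name rule also took in noncoding transcripts and the genes Tbxa2r and Tbxas1, which encode a thromboxane receptor and thromboxane synthase and are no T-box genes, which left 153 protein-coding transcription factor genes. The genes were thus chosen by name and selected on the presence of a peak in a list, with earlier results of these lists known, so the counts that follow are descriptions and carry no test.

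Cells of all 3 groups were transfected with siRNA at 100 nM, received the same dose 48 h later (200 nM in total) and were taken at 96 h. The siRNA was a control pool or was directed at ERRα or at HCFC1. Each group had 1 HCFC1 library, for which 2 independent immunoprecipitations were pooled, and the lists held 36147 peaks after control siRNA, 21881 after ERRα siRNA and 12610 after HCFC1 siRNA. There is therefore no replicate spread to set a difference against, and the read depth behind the lists is unknown. Intervals in the text are exact 95% intervals (Clopper-Pearson) of counting error alone. How far either protein fell was not measured in the files used here. The IgG libraries of the 3 groups were not analysed here.

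HCFC1, host cell factor C1, works with chromatin-modifying enzymes. It does not bind DNA itself and is brought to promoters, mostly of housekeeping genes, by DNA-binding partners. ERRα is an orphan nuclear receptor that regulates genes of mitochondria and energy supply. The developmental genes described here are silent in most adult cells, and their CpG-rich promoters are known as classical targets of the Polycomb repressor complexes. A few, such as Gata4, Gata6, Tbx3 and Sox9, act in the embryonic liver and bile ducts.

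Promoter windows showed where the 3 lists differed at these genes. A window ran from 250 bases before to 50 after a transcription start in the RefSeq table of build GRCm38.p6 (mm10), and 124 windows of 98 matched genes were found. In control cells 19 of the 124 windows had an HCFC1 peak (15.3%, interval 9.48 to 22.9%), against 43.6% of all 21263 windows. After ERRα knockdown 41 had a peak (33.1%, 24.9 to 42.1%), against 47.3% of all windows, and after HCFC1 knockdown 24 did (19.4%, 12.8 to 27.4%), against 25.5%. The number of covered windows at developmental genes was thus higher in both knockdown lists than in the control list, while over all promoters it went from 9271 to 10060 after ERRα knockdown and to 5419 after HCFC1 knockdown. By the authors' annotation no such rise was seen. A promoter peak was assigned to 21, 21 and 17 of the 153 factors in the control, ERRα-knockdown and HCFC1-knockdown lists. The shares were 13.7%, 13.7% and 11.1%, against 23.5%, 22.3% and 15.3% of all protein-coding genes. Wider peaks reach more windows, and peak width was not matched. The median ratio of observed over expected CpG was 0.68 in the windows of these genes and 0.57 in all windows. Among windows with a ratio of 0.6 or more, 15 of 76 at developmental genes had a control peak (19.7%, 11.5 to 30.5%), against 75.6% of all such windows. For ERRα knockdown it was 35 of 76 (46.1%, 34.5 to 57.9%) against 81.8%, and for HCFC1 knockdown 21 of 76 (27.6%, 18.0 to 39.1%) against 46.4%.

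**Figure D1:**
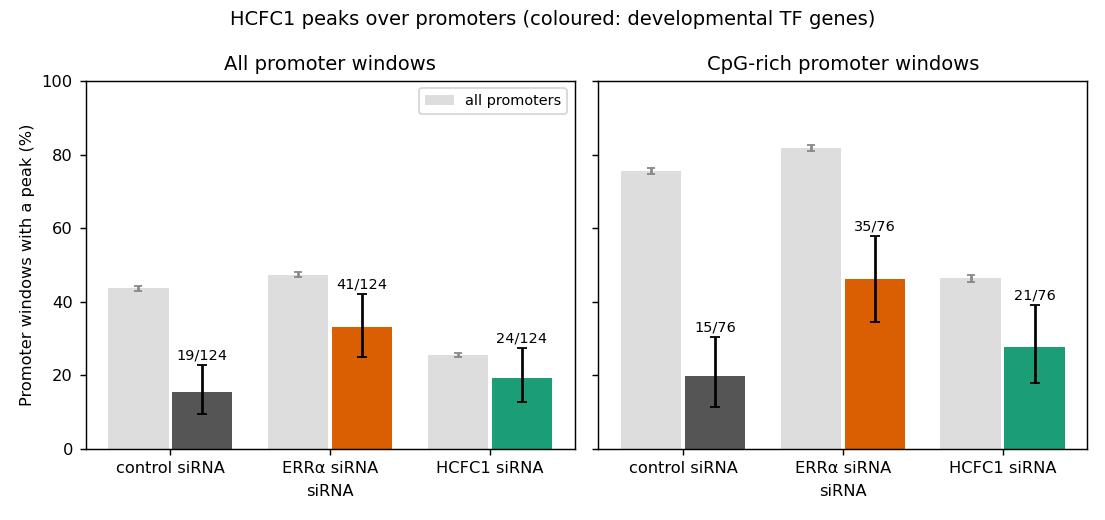
Share of promoter windows (%, y axis) with an HCFC1 peak in each of the 3 lists (x axis), for all windows and for windows with an observed over expected CpG of 0.6 or more. Coloured bars are developmental transcription factor genes, with the number of windows above each bar, grey bars are all promoters, and error bars are exact 95% intervals for counting error. In control cells 15 of the 76 CpG-rich windows of these genes had a peak, against 75.6% of all CpG-rich windows.

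By pattern, 8 of the 124 windows had a peak in all 3 lists, 9 in the control and ERRα-knockdown lists, 2 in the control list alone, 11 in both knockdown lists without a control peak, 13 in the ERRα-knockdown list alone, 5 in the HCFC1-knockdown list alone and 76 in no list. These patterns were not counted over all windows, so whether they are particular to these genes is unknown. The first 4 sequences shown had a peak after either knockdown and none in control cells. Capitals mark matches, on either strand, to 14 short motifs named further on, and every sequence is from RefSeq, 5′ to 3′ in the direction of the gene.
Nkx2-4 promoter, chr2:147085296-147085595, minus strand: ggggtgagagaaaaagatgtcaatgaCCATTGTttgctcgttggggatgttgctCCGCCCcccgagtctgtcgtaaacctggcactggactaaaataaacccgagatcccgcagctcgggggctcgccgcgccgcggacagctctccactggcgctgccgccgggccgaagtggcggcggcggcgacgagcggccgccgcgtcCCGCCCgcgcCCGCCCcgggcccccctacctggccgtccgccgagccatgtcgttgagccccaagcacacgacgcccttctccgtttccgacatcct
Gata2 promoter, chr6:88193641-88193940, plus strand: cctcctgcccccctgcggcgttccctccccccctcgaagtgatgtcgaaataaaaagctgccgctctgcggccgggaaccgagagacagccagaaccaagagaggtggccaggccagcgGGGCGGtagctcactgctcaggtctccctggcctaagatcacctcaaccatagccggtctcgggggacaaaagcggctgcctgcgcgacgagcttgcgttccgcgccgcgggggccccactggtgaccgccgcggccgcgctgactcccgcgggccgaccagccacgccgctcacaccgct
Hmx2 promoter, chr7:131554043-131554342, plus strand: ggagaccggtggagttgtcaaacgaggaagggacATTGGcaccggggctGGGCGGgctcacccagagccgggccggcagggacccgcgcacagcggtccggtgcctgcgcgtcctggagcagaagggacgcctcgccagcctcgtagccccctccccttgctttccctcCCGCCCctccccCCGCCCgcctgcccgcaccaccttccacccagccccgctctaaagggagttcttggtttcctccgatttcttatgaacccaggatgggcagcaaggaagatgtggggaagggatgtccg
Sox2 promoter, chr3:34649745-34650044, plus strand: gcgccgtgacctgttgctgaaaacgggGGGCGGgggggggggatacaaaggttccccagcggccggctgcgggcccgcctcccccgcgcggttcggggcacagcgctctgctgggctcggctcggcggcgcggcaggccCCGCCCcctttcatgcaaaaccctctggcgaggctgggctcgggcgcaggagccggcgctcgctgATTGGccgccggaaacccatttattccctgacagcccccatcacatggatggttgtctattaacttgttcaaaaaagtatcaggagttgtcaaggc
Nkx2-4, a forebrain homeobox gene, had no control peak within 63406 bp of its ERRα-knockdown peak, which scored 170, and its HCFC1-knockdown peak scored 198. At Gata2, a regulator of blood stem cells, the peaks over the window scored 148 and 67, and the nearest control peak was 48174 bp away. At Hmx2, an inner ear gene, they scored 190 and 28, with a control peak 787 bp from the first. The window of Sox2, a pluripotency and neural progenitor factor, was different in kind: it lay in a gap between control peaks scoring 70 and 193, and 1 wide peak spanned the gap after either knockdown. The peak score is the authors' own, its scale is not stated, and scores of different lists are given side by side without being compared.

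The next 2 windows had a peak in control cells and after ERRα knockdown, and none after HCFC1 knockdown.
Dlx1 promoter, chr2:71529195-71529494, plus strand: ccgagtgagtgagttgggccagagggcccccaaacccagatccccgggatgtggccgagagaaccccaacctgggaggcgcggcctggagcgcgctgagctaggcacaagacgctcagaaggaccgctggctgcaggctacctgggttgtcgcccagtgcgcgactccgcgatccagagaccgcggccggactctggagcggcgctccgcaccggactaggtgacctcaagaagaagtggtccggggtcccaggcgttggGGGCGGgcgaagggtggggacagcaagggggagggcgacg
Sox12 promoter, chr2:152397997-152398296, minus strand: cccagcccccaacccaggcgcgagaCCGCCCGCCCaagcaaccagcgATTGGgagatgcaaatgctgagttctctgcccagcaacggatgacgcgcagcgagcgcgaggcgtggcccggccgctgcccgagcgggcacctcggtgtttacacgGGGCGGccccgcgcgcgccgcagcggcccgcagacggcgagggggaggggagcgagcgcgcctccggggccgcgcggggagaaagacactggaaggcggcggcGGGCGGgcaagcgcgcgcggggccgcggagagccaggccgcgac
Dlx1, which acts in forebrain interneurons, had a promoter peak scoring 124 in control cells and 155 after ERRα knockdown. Sox12, a SoxC gene, had the highest-scoring peak of all these genes in control cells (348) and after ERRα knockdown (536). After HCFC1 knockdown its gene body kept a peak scoring 25 that did not reach the window. The last window, at the neural gene Nkx6-2, had a peak in every list, scoring 80, 259 and 377 in the control, ERRα-knockdown and HCFC1-knockdown lists.
Nkx6-2 promoter, chr7:139582748-139583047, minus strand: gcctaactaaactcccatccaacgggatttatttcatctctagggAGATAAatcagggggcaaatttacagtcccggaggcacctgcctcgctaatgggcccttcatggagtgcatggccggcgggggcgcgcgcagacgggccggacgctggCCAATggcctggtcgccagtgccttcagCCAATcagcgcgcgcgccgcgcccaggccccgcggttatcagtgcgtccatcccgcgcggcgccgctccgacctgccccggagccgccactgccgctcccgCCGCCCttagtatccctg

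The Sox12 window held 5 motif matches and the other printed windows between 1 and 4, most of them the GC box GGGCGG of SP factors. Over the 124 windows GGGCGG was found in 55.6%, against 46.2% of all windows, and CCAAT, the NFY box, in 46.8% against 38.2%. The interval of the first (46.5 to 64.6%) lies just above the share of all windows, and that of the second (37.8 to 55.9%) includes it. The ETS motif CCGGAAG was in 1.61% of the windows against 11.6% of all, the NRF1 motif GCATGCGC in 0 of 124 against 3.52%, the E2F motif TTCCCGC in 1.61% against 5.95% and the YY1 motif AAGATGGCG in 0 against 1.83%. The intervals for the ETS and E2F motifs (0.196 to 5.70%) and for the NRF1 motif (0 to 2.93%) lie below the share of all windows, while that for the YY1 motif (0 to 2.93%) includes it. The full motif of THAP11 and ZFP143, known HCFC1 partners, was in 0 windows (0 to 2.93%) against 0.423%, an interval that includes the share of all, and its core ACTACAA, which lies inside it, in 2.42% against 3.60%. The ERR core motif AAGGTCA was in 3.23% against 4.08%, the E-box CACGTG in 8.87% against 7.84%, the homeodomain core TAATTA in 6.45% against 4.53% and the GATA motif AGATAA in 8.87% against 9.65%. The SOX motifs CAATAG and ACAATGG were in 6.45% and 2.42%, against 8.15% and 2.92%. A match says only that the letters are in the window, and a count of 0 that they are not.

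Where the peaks lay differed from the rest of the lists. Both knockdown lists hold only peaks nearer than 20 kb to a transcription start, while the control list also reaches far beyond, so peaks are compared within 20 kb from here on, which leaves 166 of the 273 control peaks. Exons carried 24.1% of these control peaks (17.8 to 31.3%), 30.1% after ERRα knockdown (23.3 to 37.5%) and 35.8% after HCFC1 knockdown (26.8 to 45.5%), against 11.9%, 14.5% and 14.9% of all peaks. Promoters carried 13.9%, 14.5% and 15.6%, against 22.7%, 24.6% and 28.9% of all peaks, and introns 22.3%, 22.5% and 22.0% against 37.2%, 35.0% and 32.1%. A transcript of the assigned gene itself held 84 of the 117 control peaks annotated to an exon, intron or UTR, counted without the 20 kb limit, and 91 of 102 and 65 of 70 in the ERRα-knockdown and HCFC1-knockdown lists. The peaks were weaker than most in control cells (median score 33 against 40) and after ERRα knockdown (48 against 59), and near the rest after HCFC1 knockdown (35 against 36). Their median width was 390 bp, 616 bp and 573 bp in the 3 lists, against 464, 711 and 466 bp of all peaks.

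**Figure D2:**
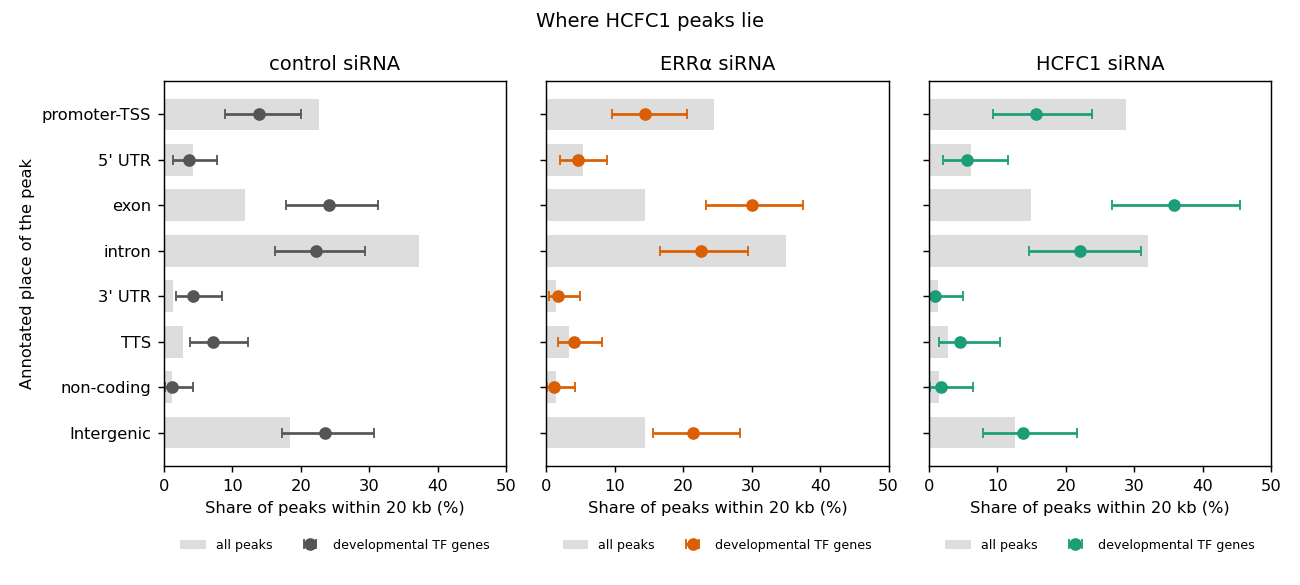
Share of HCFC1 peaks within 20 kb of a transcription start (%, x axis) by annotated place (y axis; TTS, transcription end), in the control, ERRα-siRNA and HCFC1-siRNA lists. Points with exact 95% intervals are developmental transcription factor genes and grey bars are all peaks. Exons hold 24.1%, 30.1% and 35.8% of the peaks of these genes, against 11.9%, 14.5% and 14.9% of all.

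The first question was which control peaks were missing after a knockdown, where a kept peak shared 1 bp or more with a knockdown peak. After ERRα knockdown 70 of the 166 control peaks were missing (42.2%, 34.6 to 50.1%), against 42.5% of all control peaks within 20 kb. After HCFC1 knockdown 114 were missing (68.7%, 61.0 to 75.6%), against 68.5% of all. Both intervals include the share of all peaks. Over the full control list, 177 of 273 peaks (64.8%) were missing after ERRα knockdown and 220 (80.6%) after HCFC1 knockdown, against 59.4% and 77.7% of all peaks, but control peaks beyond 20 kb had almost no list to be found in. Within score classes, set at the quartiles 24, 35 and 62 of the control list, 16 of 40 of the weakest control peaks were kept after ERRα knockdown (40.0%, 24.9 to 56.7%) against 26.3% of all, and 8 of 40 after HCFC1 knockdown (20.0%, 9.05 to 35.6%) against 7.43%. The latter interval lies above the share of all peaks. In the next class 21 of 49 (42.9%, 28.8 to 57.8%) and 9 of 49 (18.4%, 8.76 to 32.0%) were kept, against 32.9% and 10.3% of all. In the class above it 29 of 45 (64.4%, 48.8 to 78.1%) and 15 of 45 (33.3%, 20.0 to 49.0%) were kept, against 53.5% and 19.3%, and only the last interval of these 4 lies above the share of all peaks. The strongest class was kept in 30 of 32 cases after ERRα knockdown and in 20 of 32 after HCFC1 knockdown (62.5%, 43.7 to 78.9%), against 95.5% and 69.3% of all.

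Of exonic control peaks, 32 of 40 were kept after ERRα knockdown (80.0%, 64.4 to 90.9%) and 25 of 40 after HCFC1 knockdown (62.5%, 45.8 to 77.3%), where 71.6% and 40.9% of all exonic peaks were kept, the second of which lies outside its interval. For promoter peaks it was 18 of 23 after ERRα knockdown (78.3%, 56.3 to 92.5%) and 10 of 23 after HCFC1 knockdown (43.5%, 23.2 to 65.5%), against 88.2% and 55.6% of all. Those intervals include the share of all peaks. Promoter peaks overlapped in all 3 lists belonged to Irx2, Pax2, Hoxa11os, Sox2, Msx3, Gata4, Hmx3, Irx5 and Hoxd8, and that of Nkx6-1 was overlapped after HCFC1 knockdown only. The promoter window of Nkx6-1 nevertheless had a peak in all 3 lists. The strongest promoter peaks missing after HCFC1 knockdown and present after ERRα knockdown were those of Dlx1 (124), Dlx4 (62), Tbx3 (62) and Sox9 (59). At Sox9 the HCFC1-knockdown list held another promoter peak, scoring 28, which lay 107 bp from the nearest control peak and overlapped the ERRα-knockdown promoter peak. Hoxa10, Sox6os, Sox8 and Hoxa6 had promoter peaks, scoring 56, 48, 27 and 20, that were missing from both knockdown lists.

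Peaks were also gained, that is, found in a knockdown list without an overlapping control peak. After ERRα knockdown 89 of 173 peaks were gained (51.4%, 43.7 to 59.1%), against 40.5% of all peaks in that list. After HCFC1 knockdown 59 of 109 were gained (54.1%, 44.3 to 63.7%), against 34.1%. Both intervals lie above the background share, which was not matched for score. In the top score class, where few peaks were gained, were 6.94% of these genes' ERRα-knockdown peaks, against 25.1% of all. For HCFC1 knockdown it was 23.9% against 25.1%. At promoters the gained share was 9 of 25 after ERRα knockdown (36.0%, 18.0 to 57.5%) against 14.96% of all promoter peaks, and 10 of 17 after HCFC1 knockdown (58.8%, 32.9 to 81.6%) against 8.93%. By score class from lowest to highest, it was 5 of 6, 2 of 4, 2 of 13 and 0 of 2 after ERRα knockdown. All promoter peaks gave 67.9%, 47.6%, 11.6% and 0.0365%, each inside the interval of these genes. For HCFC1 knockdown it was 1 of 1, 3 of 6, 3 of 6 and 3 of 4, against 24.1%, 14.4%, 8.79% and 1.68%. Only in classes 3 and 4 of that list did the interval lie above the share of all. The median distance from a gained peak to the nearest control peak was 4050 bp and 2518 bp, and 21 of the 89 and 18 of the 59 lay within 1000 bp of one. Both knockdowns are set against the same control list, so the 2 gained shares are not independent. Compared directly, 68 of the 173 ERRα-knockdown peaks (39.3%) overlapped an HCFC1-knockdown peak, against 36.9% of all, and 72 of the 109 HCFC1-knockdown peaks (66.1%) overlapped an ERRα-knockdown peak, against 71.1% of all.

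Strong gained peaks were rare in the lists as a whole and less so at these genes. In the top score class of the ERRα-knockdown list (quartile 188), 7 of all 5493 peaks were gained (0.127%), and 3 of these 7 were at Lbx1, Pax2 and Hmx2, which made 3 of the 12 peaks of developmental genes in that class (25.0%, 5.49 to 57.2%). In the top class of the HCFC1-knockdown list (quartile 62), 146 of 3171 peaks were gained (4.60%), among them 10 of the 26 of developmental genes (38.5%, 20.2 to 59.4%). The top class has no upper limit, and scores within it were not matched. Scores reached 536 at these genes and 42521 over all peaks after ERRα knockdown, and 424 and 11497 after HCFC1 knockdown. The 7 gained ERRα-knockdown peaks scored between 189 and 262. In the 3 lower classes of the HCFC1-knockdown list the gained shares at these genes were 16 of 23, 20 of 32 and 13 of 28, against 57.9%, 46.0% and 28.8% of all peaks. For ERRα knockdown the lower classes gave 30 of 41, 39 of 62 and 17 of 58 (73.2%, 62.9% and 29.3%), against 78.5%, 64.6% and 20.0%. In all these lower classes of both lists the interval at these genes includes the share of all peaks.

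**Figure D3:**
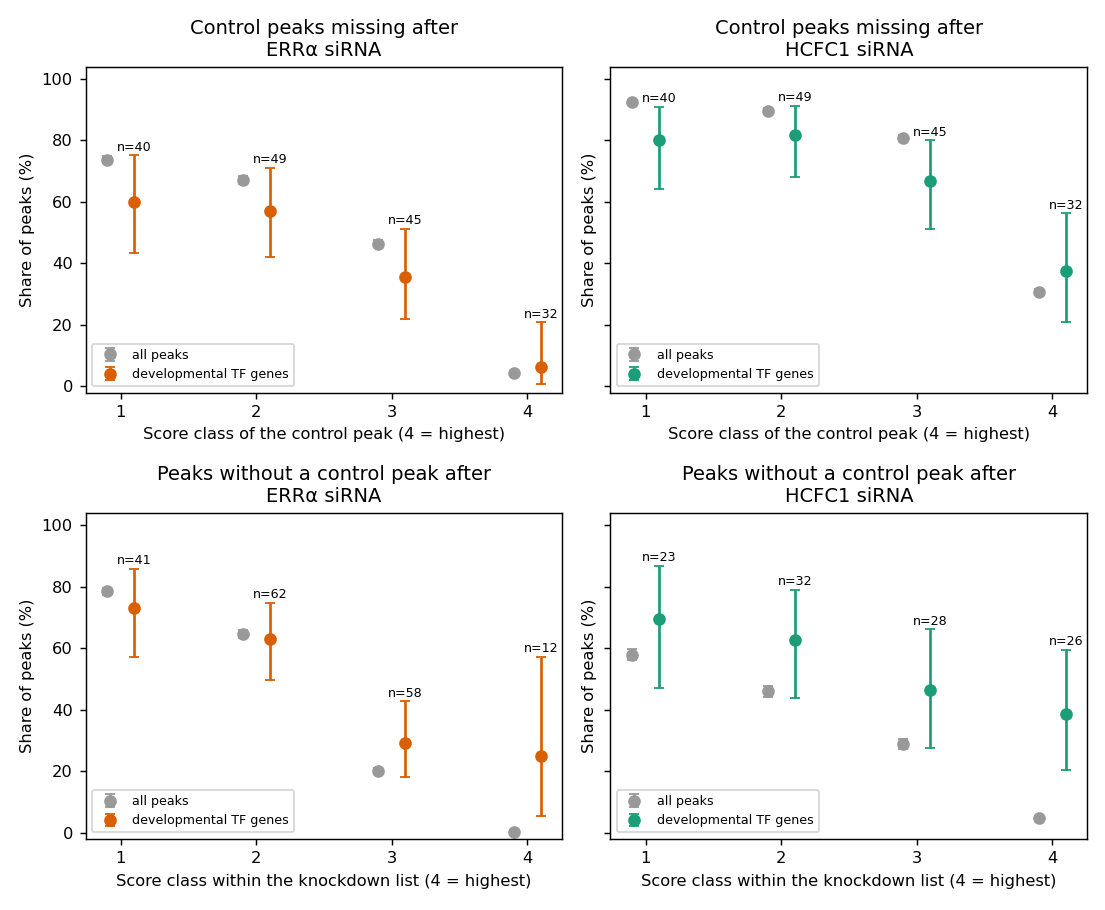
Share of peaks (%, y axis) by score class (x axis, 4 highest), with control peaks within 20 kb missing after each knockdown in the upper row and knockdown peaks without a control peak in the lower row. Coloured points are developmental transcription factor genes with their numbers and exact 95% intervals, and grey points are all peaks. In the top class of the HCFC1-siRNA list 10 of 26 peaks of these genes had no control peak, against 4.60% of all. The top class has no upper limit, and scores within it were not matched.

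The families are sets of a few peaks each. The 4 Hox families together gained 16 of 29 peaks after ERRα knockdown (55.2%, 35.7 to 73.6%) and 14 of 21 after HCFC1 knockdown (66.7%, 43.0 to 85.4%). The 11 other homeobox families gained 37 of 65 (56.9%, 44.0 to 69.2%) and 30 of 51 (58.8%, 44.2 to 72.4%). Pax genes, some of which carry a homeobox too, gained 6 of 13 and 4 of 10. The 6 families without a homeobox gained 30 of 64 after ERRα knockdown (46.9%, 34.3 to 59.8%) and 9 of 25 after HCFC1 knockdown (36.0%, 18.0 to 57.5%), intervals that include the background shares of 40.5% and 34.1%. The Hox interval after ERRα knockdown includes 40.5% as well, the intervals of the classes overlap, and no difference between classes was tested. Missing control peaks came to 14 of 27 and 20 of 27 for Hox, 26 of 66 and 41 of 66 for the other homeobox families, 6 of 13 and 9 of 13 for Pax and 23 of 57 and 41 of 57 for the families without a homeobox, after ERRα and HCFC1 knockdown in turn. Of all control peaks within 20 kb, 42.5% and 68.5% were missing. The interval of every class includes these shares, with 31.9 to 71.3% and 53.7 to 88.9% for Hox.

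**Figure D4:**
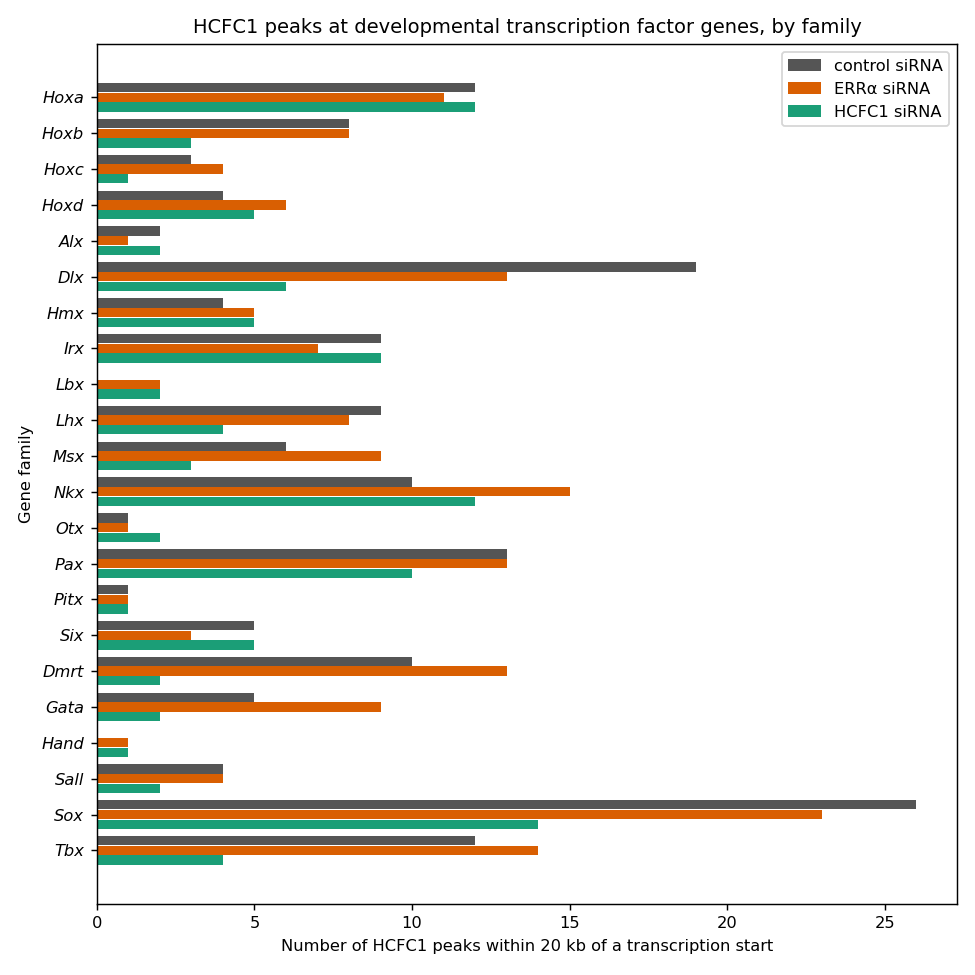
Number of HCFC1 peaks within 20 kb of a transcription start (x axis) for each gene family (y axis) in the control, ERRα-siRNA and HCFC1-siRNA lists. Sox genes had the most peaks, 26, 23 and 14, and Lbx and Hand were assigned peaks within 20 kb in the knockdown lists only.

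Irx genes (Iroquois homeobox factors of neural and heart patterning) kept 9 of 9 control peaks after ERRα knockdown (interval 66.4 to 100%). After HCFC1 knockdown they kept 8 of 9 (51.8 to 99.7%). Of all control peaks, 57.5% and 31.5% were kept. The Irx intervals treat the control peaks as independent, but wide knockdown peaks covered several of them together. After ERRα knockdown an Irx5 peak spanned 3 control peaks, and Irx2 and Irx3 peaks spanned 2 each. After HCFC1 knockdown an Irx3 peak spanned 2. The intervals are therefore too narrow. The Irx1 peak over its transcription start scored 231, 233 and 424 in the control, ERRα-knockdown and HCFC1-knockdown lists, and the last was the highest score of these genes after HCFC1 knockdown. At Irx2 a 4538 bp peak of the HCFC1-knockdown list, scoring 249, spanned 4 control peaks that scored 117, 107, 34 and 27. Hmx genes kept 4 of 4 in both (39.8 to 100%), and an Hmx3 peak spanned 2 control peaks after ERRα knockdown. In all, 12 ERRα-knockdown and 4 HCFC1-knockdown peaks spanned 2 or more control peaks, the widest being a 5887 bp peak at Six5 after ERRα knockdown, so the number of peaks can fall where the covered length does not.

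Dlx genes (distal-less factors of face, limb and forebrain) kept 12 of 19 control peaks after ERRα knockdown and 4 of 19 after HCFC1 knockdown (6.05 to 45.6%). Lhx genes (LIM homeobox factors) kept 3 of 9 and 0 of 9 (0 to 33.6%). They gained 5 of 8 (24.5 to 91.5%) and 4 of 4 peaks (39.8 to 100%), against 40.5% and 34.1% of all peaks. The 4 peaks lay at Lhx4 and Lhx9 alone, and an Lhx9 peak lay 29 bp from a control peak. Lhx6, an interneuron gene, had the strongest control peak missing after HCFC1 knockdown, in exon 7 of 9 and scoring 140, where the ERRα-knockdown list had a peak scoring 99. Dmrt genes, known from sex determination and cortex, kept 6 of 10 and 1 of 10. Tbx genes kept 6 of 12 and 2 of 12, and Sox genes 16 of 26 and 11 of 26. The intervals of these 5 families include the 57.5% and 31.5% kept of all control peaks after ERRα and HCFC1 knockdown. Sox genes gained 8 of 23 peaks after ERRα knockdown (34.8%, 16.4 to 57.3%) and 4 of 14 after HCFC1 knockdown (28.6%, 8.39 to 58.1%), with intervals that include the background shares.

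Nkx genes gained 11 of 15 peaks after ERRα knockdown (73.3%, 44.9 to 92.2%) and 8 of 12 after HCFC1 knockdown (66.7%, 34.9 to 90.1%), against 40.5% and 34.1% of all peaks, while 4 of 10 control peaks were kept in either list. Nkx1-1, Nkx1-2 and Nkx2-4 were assigned a peak within 20 kb in both knockdown lists and none in the control list. Over all families this pattern was found for 15 genes, the others being Gata2, Hand2, Hoxa4, Hoxa11, Hoxc13, Lbx1, Otx1, Pax6, Pitx3, Six6, Tbx1 and Tbx10. It rests on the assigned gene, and a control peak assigned to another gene can lie nearby. At Hoxa11 a control peak scoring 75, assigned to Hoxa11os, lay under the ERRα-knockdown peak. For gained ERRα-knockdown peaks of the other genes, the nearest control peak lay between 3101 bp (Tbx10) and 278803 bp (Otx1) away. By assigned gene, a peak in all 3 lists was found for 44 of the 184 genes, in the control and ERRα-knockdown lists for 20, in the control and HCFC1-knockdown lists for 5, in the control list alone for 15, in the ERRα-knockdown list alone for 19, in the HCFC1-knockdown list alone for 2 and in none for 64. The same patterns were not counted over all genes. Of the 153 protein-coding factors, 73 had a peak within 20 kb in the control list (47.7%), 91 in the ERRα-knockdown list (59.5%) and 60 in the HCFC1-knockdown list (39.2%), where 53.9%, 52.5% and 36.7% of all protein-coding genes did.

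Lbx1, a factor of migrating muscle precursors and dorsal spinal cord neurons, had the strongest gained peak of these genes after ERRα knockdown. It scored 210 and ran over chr19:45233553-45236163, in intron 2 of the gene, 16876 bp from the nearest control peak. The HCFC1-knockdown list had peaks scoring 180 and 95 at the same place. The control list had 3 peaks for Lbx1, scoring 181, 56 and 18, all more than 20 kb from the gene's start, where the knockdown lists hold no peaks. Peaks assigned to Lbx1 within 20 kb were thus found after either knockdown and not in control cells.

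Pax2, a kidney and midbrain gene, had the most peaks of the Pax family, 10 within 20 kb in the control list, 10 in the ERRα-knockdown list and 7 in the HCFC1-knockdown list. Its 5′ UTR peak scored 121 in control cells and 243 after ERRα knockdown and was missing after HCFC1 knockdown. An intron 1 peak 4060 bp from the start was gained after either knockdown, scoring 208 and 24, and lay 629 bp from a control peak in the ERRα-knockdown list. A control peak in the same intron, scoring 80, was the strongest missing after ERRα knockdown, and it was missing after HCFC1 knockdown as well.

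Further peaks gained in both lists were found at Hand2 (heart and limb), scoring 139 and 27, and at Dmrta2 (cortex), scoring 137 and 24. At Tbx1, a gene of the pharyngeal arches, they scored 88 and 47, with the nearest control peak 37844 bp away. At Pax6, the eye regulator, they scored 72 and 47 and lay in the 5′ UTR, 146798 bp from a control peak. Peaks at Hoxb6 (78 and 63), Hoxc13 (63 and 34), Lhx4 (58 and 57) and Sall3 (82 and 142) were gained in both as well, and those of Sall3 and Hoxb6 lay within 1000 bp of a control peak. The Sox21 peak, 98611 bp from a control peak, scored 72 after ERRα knockdown and overlapped an HCFC1-knockdown peak scoring 80 that the authors assigned to another gene. Among the strongest peaks gained after ERRα knockdown alone were an Nkx6-3 peak scoring 105, 138 bp from a control peak, and an Msx2 peak scoring 103, and after HCFC1 knockdown alone peaks at Nkx2-3 (76), Msx2 (65), Hoxa13 (62), Hoxd8 (54), Sox15 (50) and Hoxa7 (48). This last Msx2 peak, 7403 bp from the gene's start, lay beside a gained ERRα-knockdown peak scoring 55 at 7039 bp, without overlapping it.

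The Hox genes stand in 4 clusters and specify position along the body axis. Counted by place, 20 kb on either side included and whatever the assigned gene, the Hoxa cluster on chromosome 6 had 15 control, 16 ERRα-knockdown and 15 HCFC1-knockdown peaks, which covered 6.12 kb, 11.3 kb and 10.8 kb. The Hoxd cluster on chromosome 2 had 5, 9 and 8 peaks over 1.27 kb, 5.17 kb and 3.67 kb. Covered length was thus larger in both knockdown lists at Hoxa and Hoxd. The Hoxb cluster on chromosome 11 had 10, 11 and 3 peaks over 3.19 kb, 5.26 kb and 1.42 kb, and the Hoxc cluster on chromosome 15 had 5, 4 and 2, where no knockdown peak overlapped a control peak.

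The strongest Hox peak of every list was in Hoxa13, which patterns the distal limb and the genital tract, and it scored 100, 178 and 260 in the control, ERRα-knockdown and HCFC1-knockdown lists. The HCFC1-knockdown list added a Hoxa13 promoter peak scoring 62, 407 bp from a control peak. A peak in the Hoxa3 region, scoring 15, 124 and 117, carried no gene name in the lists and so stands outside the counts of families. Of 8 Hoxb control peaks 2 were kept after ERRα knockdown (25.0%, 3.19 to 65.1%) and 1 after HCFC1 knockdown (12.5%, 0.316 to 52.7%), intervals that include the 57.5% and 31.5% of all peaks. Hoxb4, Hoxb5 and Hoxb7 had a peak after ERRα knockdown only. Hoxc13 had a peak in exon 1 in both knockdown lists and none in control cells, while Hoxd13 had a peak in every list, scoring 23, 53 and 41.

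**Figure D5:**
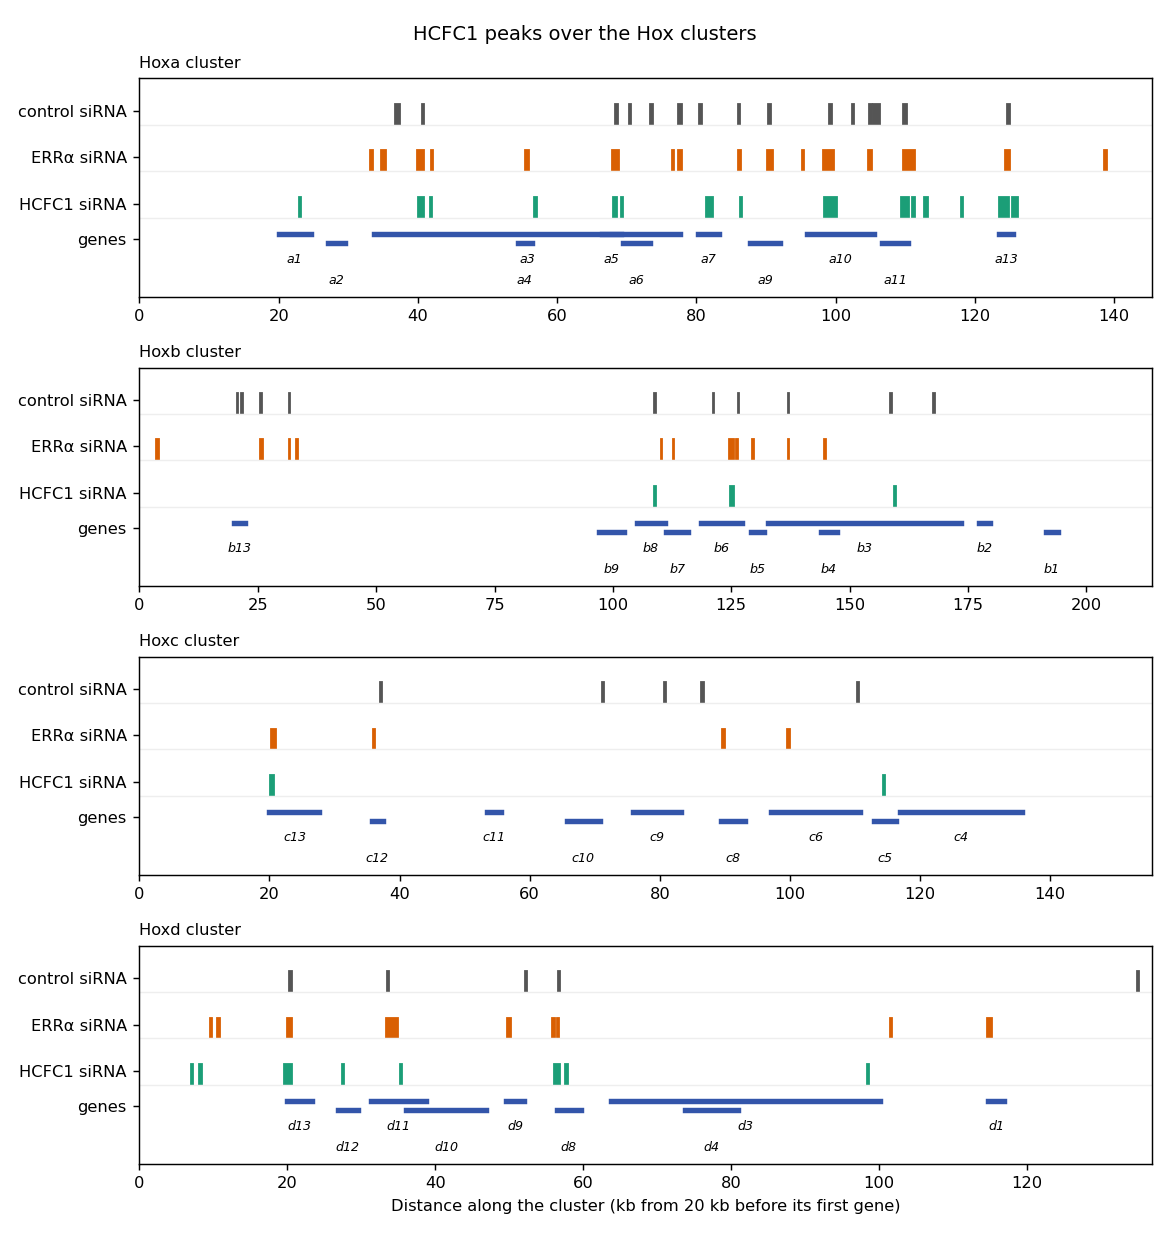
HCFC1 peaks of the control, ERRα-siRNA and HCFC1-siRNA lists (blocks, 1 row for each list) along the 4 Hox clusters, with Hox genes in blue. The x axis is the distance in kb from a point 20 kb before the first gene, blocks have equal height, and peaks narrower than 0.3 kb are drawn 0.3 kb wide. The Hoxb cluster had 10, 11 and 3 peaks in the 3 lists and the Hoxd cluster 5, 9 and 8.

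The factors with a known part in liver development followed no single pattern. Gata4 had a peak at or near its transcription start in every list, scoring 47, 80 and 28. Its intergenic peak 10755 bp before the start, scoring 21 in control cells, was overlapped by a peak scoring 64 after ERRα knockdown and by none after HCFC1 knockdown. Gata6 had 7 control peaks, all intergenic and 6 of them beyond 20 kb, where the knockdown lists hold none. The seventh, nearer than 20 kb and scoring 27, was missing from both knockdown lists. Sox9 had its strongest control peak, scoring 241, in exon 3 of 3, and this peak was overlapped by peaks scoring 180 after ERRα knockdown and 22 after HCFC1 knockdown. Tbx3 had 5 control peaks scoring between 40 and 62, of which 4 were overlapped after ERRα knockdown and 0 after HCFC1 knockdown. Sall4, a fetal liver and stem cell gene, had a control peak in intron 1, scoring 30, that was missing from both knockdown lists, and 1 further control peak beyond 20 kb.

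By gene name, Sall1 had 10 control peaks, 9 of them intergenic and beyond 20 kb. Its promoter peak, scoring 37, was overlapped after ERRα knockdown by a peak scoring 112 that carried no gene name, while no peak overlapped it after HCFC1 knockdown. Over all families, 107 control peaks (39.2%, against 29.4% of all control peaks) lay beyond 20 kb, at 40 genes, with a median score of 27, and 80 were intergenic. At the edge, the last control peaks counted were at Dmrt1i (19655 bp, score 30) and Dlx3 (−19482 bp, score 37), and the first left out at Hoxd1 (20185 bp, score 22) and Pax3 (−20280 bp, score 76).

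The pattern was compared with 3 other gene lists, within 20 kb. Of 68 further homeobox genes outside the name rule, 44 had control peaks, 107 in all, of which 70 were kept after ERRα knockdown (65.4%, 55.6 to 74.4%) and 39 after HCFC1 knockdown (36.4%, 27.4 to 46.3%). They gained 41 of 98 peaks after ERRα knockdown (41.8%, 31.9 to 52.2%) and 22 of 61 after HCFC1 knockdown (36.1%, 24.2 to 49.4%), both with intervals that include the background. Genes for subunits of the Polycomb complexes, which keep developmental genes silent, had control peaks at 29 of 31 genes, 73 in all. Of these, 48 were kept after ERRα knockdown (65.8%, 53.7 to 76.5%), where the interval includes the 57.5% of all peaks, and 34 after HCFC1 knockdown (46.6%, 34.8 to 58.6%), where it lies above 31.5%. They gained 20 of 61 (32.8%, 21.3 to 46.0%), with an interval that includes the background of 40.5%, and 7 of 43 (16.3%, 6.81 to 30.7%), with an interval below the background of 34.1%. The 8 hepatocyte marker genes had 25 control peaks, of which 14 were kept after ERRα knockdown (56.0%, 34.9 to 75.6%) and 5 after HCFC1 knockdown (20.0%, 6.83 to 40.7%). They gained 7 of 17 (41.2%, 18.4 to 67.1%) and 3 of 10 peaks (30.0%, 6.67 to 65.2%), and all 4 of these intervals include the share of all peaks.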

How the data were processed

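HCFC1 was mapped by ChIP-seq with 1 library for each of 3 siRNA conditions. The submitters' processing notes list, with no step given, the mm10 build, HOMER 4.11.1, MACS2 2.1.1.20160309, BWA 0.7.12 and Picard 2.0.1. The authors deposited annotated peaks, each with a score of their own (whole numbers from 13, scale not stated). Places and distances are the authors'. Depth is unknown, and wider or deeper lists overlap more.

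Overlaps (at least 1 bp), exact 95% binomial intervals and promoter motif searches were computed with Python 3.11.15, pandas 2.3.3 and SciPy 1.17.1, and checked on simulated data. With 1 list per condition no p-value was computed. The members, lists and tests were chosen with earlier results of these data known. Genes named were the strongest peaks of each list, the strongest missing or gained, kept promoter peaks, liver-related factors and Hox peaks, with a part of each group printed; 1 gene that this rule names is not reported here. The 20 kb limit and the 1000 bp gap were added after seeing the data. Peak sequences were not used here, since no genome was read, so motifs were sought in RefSeq promoter windows only. Alternatives were reciprocal overlap, peak centres, score minimum, equal lists, merging and gene or place filters.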

Additional observations from a re-analysis of the deposited data

How the results depend on the processing

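In this order for ERRα and HCFC1 knockdown, with the share of all control peaks in parentheses, the kept share at these genes went from 35.2% and 19.4% of the full list (40.6% and 22.3%) to 57.8% and 31.3% within 20 kb (57.5% and 31.5%), 52.6% and 32.5% without intergenic peaks (52.1% and 29.5%), 49.5% and 33.0% with each gene once (67.3% and 43.5%), 58.5% and 44.6% in lists of equal length (71.8% and 51.1%), 92.3% and 69.2% at scores of at least 100 (96.4% and 78.9%), 15.4% and 8.06% at 50% reciprocal overlap (25.2% and 11.8%) and 13.9% and 9.16% for centres within 200 bp (22.1% and 13.3%). The gained share (51.4% and 54.1%) went to 76.3% and 79.8% at reciprocal overlap (all peaks 58.3% and 66.2%), 78.6% and 78.0% by centres (63.5% and 62.0%), 26.3% and 33.3% at scores of at least 100 (2.25% and 1.39%), 62.4% and 72.5% in equal lists (32.2% and 45.7%) and 39.3% and 37.6% with no control peak within 1000 bp (28.2% and 24.9%). It stayed above the share of all peaks in each of these settings, none of which matched the peaks by score.

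The promoter share in the control list (8.42%) went to 13.9% within 20 kb, 19.0% by distance of at most 1000 bp, 15.4% at scores of at least 100 and 18.5% in equal lists. In the ERRα-knockdown list (14.5%) it went to 41.6% by distance and 26.3% by score, and in the HCFC1-knockdown list (15.6%) to 41.3% by distance. The genes' share of the control list (0.755%) went to 0.651% within 20 kb, 0.220% at scores of at least 100, 0.515% in equal lists and 0.636% without noncoding transcripts, Tbxa2r and Tbxas1. Their share of the ERRα-knockdown list (0.791%) went to 0.475% by score and 0.674% in equal lists, and of the HCFC1-knockdown list (0.864%) to 0.520% by score. The cause of these shifts was not tested. The other 24 values stayed within the counting interval of the value from the lists as deposited. No paired analysis was possible because each condition has 1 library. Without read counts, depth limits could not be stated.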
